A study of Mus musculus with 3 samples.

Results

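The protein genes of the mitochondrial ribosome were followed in 3 samples of normal mouse skeletal muscle, on 1 microarray each. They were taken by symbol: every probe set with a single gene symbol that starts with Mrpl (large subunit) or Mrps (small subunit) was kept, and where a gene had several, the one with the highest average gave its level. This gave 74 genes of 12394, 47 of the large and 27 of the small subunit, read by 127 of 22690 probe sets. The samples, muscle 1, muscle 2 and muscle 3, came from littermate controls aged 3 to 6 weeks and formed the only group, so no contrast between conditions was made. In the study they were the normal tissue beside tumours of Pax7-positive satellite cells, the stem cells of muscle, which are not analysed here. The labels name neither the strain nor the alleles of the controls. They describe an injection of 4-hydroxytamoxifen into the hindlimb for tumour induction without saying whether the controls received it, nor do they tell whether each muscle is from its own animal. The SDs and p-values below therefore describe the spread of these 3 samples only, and that spread may be technical.

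All levels are log2 RMA values, in which a difference of 1 is a factor of 2. Each of the 3 arrays had a median of 6.12. The background level was set by 48 genes of other organs, such as retina, testis, liver and pancreas. The 95th percentile of their 66 probe sets was 5.97, 6.23 and 6.14 in muscles 1, 2 and 3, and a gene above it is called detected. The markers of the labelled tissue were present: 10 of 10 genes of the skeletal muscle fibre were detected in all 3 muscles, with creatine kinase (Ckm) at 13.61 ± 0.01 and skeletal actin (Acta1) at 13.62 ± 0.03 (SD, n = 3), and 4 of 4 heart genes, Myh6, Nppa, Myl7 and Tnni3, were in none. Markers of other cells were also detected in all 3 muscles, with 4 of 4 measured endothelial, 4 of 4 leukocyte and 5 of 5 fibroblast genes. The share of all genes detected in all 3 muscles was 55.5%. Every cell type with mitochondria uses the mitochondrial ribosome, so in these whole tissue samples a difference in the number of cells of a type and a difference in RNA per cell cannot be told apart. Probe sets bind with different strength, so the levels of different genes are given side by side but not ranked.

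Mitochondria keep a small genome of their own, and the few proteins it encodes, all of them subunits of the respiratory chain and ATP synthase, are made inside the organelle by a dedicated ribosome. The ribosomal RNAs of that ribosome come from mitochondrial DNA, whereas its proteins are encoded in the nucleus, made in the cytosol and imported. Part of them descend from bacterial ribosomal proteins and part are found only in mitochondria. Skeletal muscle, which depends on oxidative phosphorylation for sustained contraction, is among the tissues affected in people with inherited defects of mitochondrial translation.

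The promoters of these genes were read first, because the factors NRF1, GABP (a member of the ETS family, also called NRF2) and YY1 are known regulators of nuclear genes for mitochondrial proteins. RefSeq windows of the mouse assembly GRCm38.p6, from 250 bases before to 50 bases after the start of transcription, were found for 65 of the 74 genes and numbered 71, since some genes have several starts. The letters searched on both strands were the palindrome of NRF1 with any base at its sixth place, CCGGAAG for ETS factors, AAGATGGC for YY1, CCAAT for NF-Y and TATAAA for the TATA-binding protein. At least 1 of the first 3 motifs was found in 40 of the 71 windows (56.3%), against 30.1% of the 7323 windows of genes detected in all 3 muscles and 14.7% of all 32851 windows. A few windows are printed 5′ to 3′ in the direction of the gene, with matches to NRF1, ETS and YY1 in capitals: 3 that carry NRF1 letters and 3 that face another mitochondrial gene. Transcription starts just after the first 250 bases, and the NRF1 letters are the longest capitals in the windows of Mrpl45 and Mrpl12.
Mrpl45, chr11:97315466-97315765, plus strand: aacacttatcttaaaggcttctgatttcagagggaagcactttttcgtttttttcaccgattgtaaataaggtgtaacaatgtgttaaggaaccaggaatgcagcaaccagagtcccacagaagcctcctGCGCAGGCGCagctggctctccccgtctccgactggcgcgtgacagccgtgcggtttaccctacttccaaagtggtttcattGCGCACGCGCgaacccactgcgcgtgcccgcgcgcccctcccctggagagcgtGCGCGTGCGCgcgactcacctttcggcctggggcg
Mrpl12, chr11:120484387-120484686, plus strand: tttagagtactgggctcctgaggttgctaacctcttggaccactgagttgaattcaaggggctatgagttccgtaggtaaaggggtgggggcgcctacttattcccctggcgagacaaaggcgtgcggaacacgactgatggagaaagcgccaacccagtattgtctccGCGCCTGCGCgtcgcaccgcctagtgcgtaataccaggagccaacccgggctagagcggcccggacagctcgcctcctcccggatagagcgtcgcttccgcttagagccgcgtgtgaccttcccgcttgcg
Mrps26, chr2:130563507-130563806, plus strand: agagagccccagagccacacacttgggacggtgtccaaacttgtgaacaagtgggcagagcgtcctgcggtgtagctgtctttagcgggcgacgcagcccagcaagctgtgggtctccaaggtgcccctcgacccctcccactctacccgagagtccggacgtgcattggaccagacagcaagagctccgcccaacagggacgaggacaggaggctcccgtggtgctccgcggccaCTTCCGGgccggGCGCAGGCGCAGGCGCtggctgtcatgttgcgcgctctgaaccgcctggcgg
Mrps12, chr7:28741772-28742071, minus strand: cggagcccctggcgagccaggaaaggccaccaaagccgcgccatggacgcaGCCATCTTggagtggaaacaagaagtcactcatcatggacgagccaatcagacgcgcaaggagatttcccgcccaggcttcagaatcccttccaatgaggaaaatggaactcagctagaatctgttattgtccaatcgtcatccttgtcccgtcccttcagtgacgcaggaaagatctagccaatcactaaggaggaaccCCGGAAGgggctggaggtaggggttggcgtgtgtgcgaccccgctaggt
Mrpl43, chr19:45006393-45006692, minus strand: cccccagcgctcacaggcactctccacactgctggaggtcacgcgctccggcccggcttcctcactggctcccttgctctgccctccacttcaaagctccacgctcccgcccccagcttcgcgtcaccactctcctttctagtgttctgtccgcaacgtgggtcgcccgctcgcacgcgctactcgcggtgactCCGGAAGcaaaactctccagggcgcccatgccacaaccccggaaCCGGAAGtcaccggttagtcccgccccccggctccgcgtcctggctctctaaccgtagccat
Mrps11, chr7:78782881-78783180, plus strand: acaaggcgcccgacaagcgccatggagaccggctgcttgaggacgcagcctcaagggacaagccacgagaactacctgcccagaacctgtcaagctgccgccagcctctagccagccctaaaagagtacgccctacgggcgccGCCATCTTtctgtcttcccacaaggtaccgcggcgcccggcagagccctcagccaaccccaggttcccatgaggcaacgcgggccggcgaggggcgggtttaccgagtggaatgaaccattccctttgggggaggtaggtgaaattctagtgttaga

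Mrpl45, whose protein ties the ribosome to the inner membrane, had 3 matches to the NRF1 letters, beginning 120 and 38 bases before the start and 15 bases after it. Mrpl12, a protein of the stalk that receives translation factors, had 1, beginning 81 bases before the start. In Mrps26, of the small subunit, 2 overlapping NRF1 matches began 2 bases before and 4 bases after the start, and an ETS match began 14 bases before it. Mrpl43, of the large subunit, had 2 ETS matches, beginning 56 and 12 bases before the start, and Mrps12, the decoding centre protein, had 1 beginning 1 base after the start and a YY1 match 199 bases before it. Mrps11 had a YY1 match 107 bases before the start, outside the stretch of 141 bases that its window shares with that of Mrpl46. A match describes the letters only and is not a measured binding site.

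By motif, the ETS letters were in 24 of 71 windows (33.8%), against 18.1% of windows of detected genes and 8.86% of all windows. The YY1 letters were in 11 windows (15.5%), against 5.0% and 2.75%, and the NRF1 letters in 12 (16.9%), against 11% and 4.6%. CCAAT was about as frequent among these genes, in 28 windows (39.4%), as among detected genes (37.1%) and all genes (37.4%), and TATAAA was in 5 windows (7.04%), against 7.39% and 13.6%. No ETS match overlapped a YY1 match in these 71 windows. The median GC content of the windows was 58.7%, against 61.3% for detected genes and 52.7% for all. These shares are descriptions without a test, and windows of 1 gene can overlap.

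**Figure D1:**
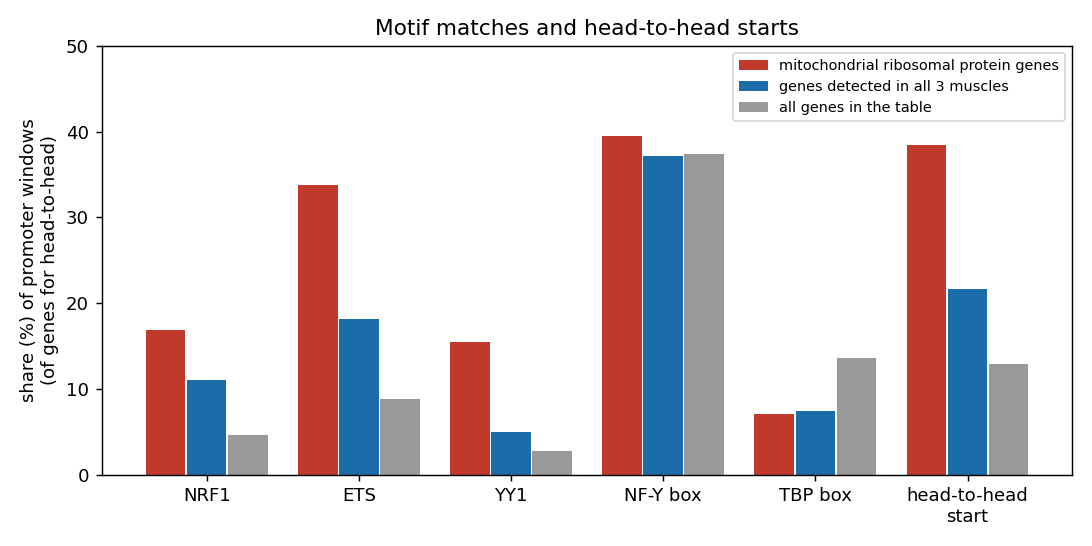
Share of promoter windows (%, vertical axis) with a match to each motif, and share of genes (%) with a head-to-head start, for the mitochondrial ribosomal protein genes, genes detected in all 3 muscles and all genes of the promoter table; the NF-Y box is CCAAT and the TBP box TATAAA. The red bars stand above both others for NRF1 (16.9%), ETS (33.8%), YY1 (15.5%) and head-to-head starts (38.5%), and are close to the detected genes for the other 2 motifs.

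Many of the genes start back to back with a neighbour on the opposite strand. A start of another gene, pointing away, lay within 1000 bases upstream or overlapped by up to 50 bases for 25 of the 65 genes (38.5%), against 21.6% of detected genes and 12.9% of all genes in the table. One of the 24 pairs joined members of the family: Mrpl46 of the large subunit and Mrps11 of the small subunit begin 42 bases apart. Mrps12 faced Sars2, the mitochondrial seryl-tRNA synthetase, at 147 bases, Mrpl43 faced Twnk, the helicase that unwinds mitochondrial DNA, at 116 bases, and Mrpl47 faced Ndufb5, a subunit of complex I, at 308 bases. Others faced genes of protein synthesis, folding or turnover outside mitochondria: Mrpl49 and Fau, the precursor of a cytosolic ribosomal protein, at 192 bases, Mrpl18 and the chaperonin subunit Tcp1 at 238 bases, and Mrpl32 and the proteasome subunit Psma2 at 205 bases. These partners were picked for their roles from 23 outside the family. Many of the rest, such as Hira, Rab6a, Klc4 and Ncapd2, belong to neither group. The share of such roles over all genes was not counted.

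The RNA of such neighbours was not always found with that of the family member. Of the 23 partners outside the family 16 were measured, and of these 12 were detected in all 3 muscles and 4 in none. Over all 12394 genes, 6880 (55.5%) were detected in all 3 muscles and 4843 in none. The 4 were Zfp189 beside Mrpl50, Cyb5rl beside Mrpl37, the DNA helicase Helq beside Mrps18c and the endonuclease subunit Eme1 beside Mrpl27. Eme1 was at 5.46, 4.89 and 4.87 in muscles 1, 2 and 3, all below background, while Mrpl27 was at 10.66, 10.67 and 10.65. Helq was at 3.95, 4.10 and 3.76, while Mrps18c was at 10.19, 10.21 and 10.11. In contrast, both sides were detected for Mrps12, at 9.37, 9.30 and 9.37, and Sars2, at 6.53, 6.34 and 6.66.

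All 74 genes of the family were detected in all 3 muscles. The same call was made for 6880 of 12394 genes, 55.5%. With background at the 99th percentile it was made again for 74 of 74, against 47% of all genes. Their means ran from 7.43 to 11.27, and the closest that any of them came to background in any muscle was 1.30 above it. Because a gene with several probe sets is judged by the highest, the count was also made on the 41 members with a single probe set, of which 41 were detected, against 3340 of 7436 genes with a single probe set (44.9%).

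**Figure D2:**
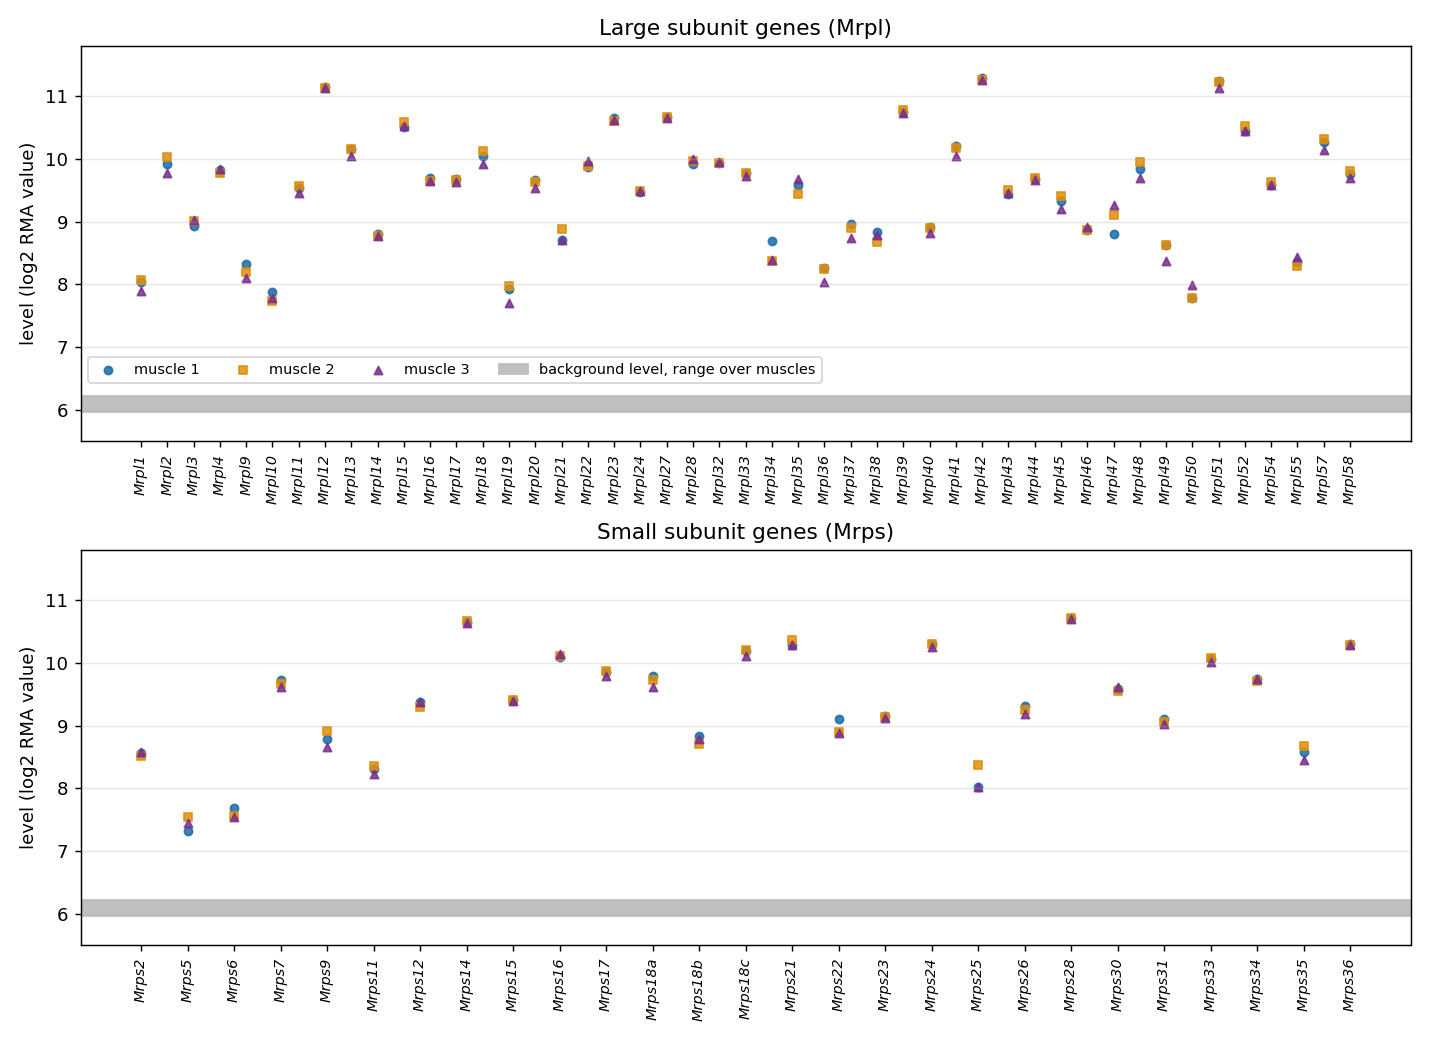
Level (log2 RMA value, vertical axis) of each of the 47 large subunit genes (top) and 27 small subunit genes (bottom) in muscle 1, muscle 2 and muscle 3; the grey band is the range of the background level over the muscles. Every point lies above the band, and the 3 points of a gene lie close together, with the widest gap at Mrpl47.

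The proteins of the stalk, the arm of the large subunit that draws in elongation factors, were represented by Mrpl10, Mrpl11 and Mrpl12. Mrpl10, the base of the stalk, was at 7.88, 7.73 and 7.78 in muscles 1, 2 and 3. Mrpl11, which lies at the stalk's foot, was at 9.53, 9.57 and 9.46. Mrpl12, which also binds the mitochondrial RNA polymerase in human cells, was at 11.14, 11.13 and 11.14. Its range of 0.0059, a factor of 1.00, was the narrowest of the 74 genes, and the stalk genes as a set differed between muscles by at most 0.154.

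Around the peptidyl transferase centre, where peptide bonds form, 5 of 5 listed genes were detected in all muscles, as were all 74 members. Mrpl27, whose bacterial relative reaches toward the transfer RNAs there, had an SD of 0.00918 over the 3 muscles. Mrpl16 was at 9.70, 9.65 and 9.64 and Mrpl4 at 9.82, 9.78 and 9.84, each with a range under 0.1. Mrpl3, mutated in a human cardiomyopathy, was at 8.93, 9.01 and 9.02. Mrpl2 was the most variable of this set, at 9.92, 10.03 and 9.78, and was highest in muscle 2 and lowest in muscle 3. Its range was a factor of 1.19, with an unadjusted p of 0.0464 and an adjusted p of 0.971 by limma's variance test, which sets each gene's spread against genes of like level.

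The tunnel exit and membrane contact, through which new proteins pass into the inner membrane, held the most variable member. Mrpl47 was at 8.79, 9.10 and 9.26 in muscles 1, 2 and 3, lowest in muscle 1 and highest in muscle 3. Its range of 0.465 is a factor of 1.38, with an unadjusted p of 0.00694 and an adjusted p of 0.782 by limma's variance test. Its head-to-head neighbour Ndufb5 was at 12.36, 12.41 and 12.32 in the same muscles and was thus lowest in muscle 3, where Mrpl47 was highest. The other genes of the exit were steadier. Mrpl22 was at 9.88, 9.89 and 9.97, Mrpl23 at 10.65, 10.60 and 10.62 and Mrpl24 at 9.47, 9.49 and 9.48. Mrpl44, mutated in human cardiomyopathy, was at 9.69, 9.69 and 9.66, and Mrpl45 was at 9.34, 9.40 and 9.19.

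The central protuberance of the large subunit was covered by 6 genes. Mrpl18 was at 10.04, 10.12 and 9.92 and Mrpl48 at 9.83, 9.95 and 9.70, both highest in muscle 2 and lowest in muscle 3. Mrpl38 and Mrpl40 averaged 8.76 ± 0.09 and 8.88 ± 0.05 (SD, n = 3). Mrpl46 was at 8.86, 8.87 and 8.91, and its head-to-head partner Mrps11 at 8.31, 8.36 and 8.23. The pair thus differed in order: muscle 3 was the highest for Mrpl46 and the lowest for Mrps11, within ranges of 0.0516 and 0.133. Mrpl52 was at 10.44, 10.52 and 10.44.

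Further large subunit genes filled in the picture. Mrpl58, which in human cells frees stalled ribosomes by cutting the peptide from its transfer RNA and is built into the large subunit, was at 9.77, 9.81 and 9.70. Mrpl32, whose maturation by the protease of the inner membrane controls ribosome assembly in yeast and mouse, was at 9.94, 9.94 and 9.95. Mrpl41, Mrpl42 and Mrpl51, with no bacterial counterpart, averaged 10.14 ± 0.08, 11.27 ± 0.02 and 11.20 ± 0.06 (SD, n = 3). After Mrpl47, the widest ranges of the large subunit were those of Mrpl34, at 8.69, 8.37 and 8.38, and of Mrpl19, at 7.93, 7.98 and 7.71. On these probe sets Mrpl34 was set apart by muscle 1 and Mrpl19 by muscle 3, with adjusted p of 0.971 and 0.988 by limma's variance test. Other probe sets differed. A second detected probe set of Mrpl19 was set apart by muscle 1, at 7.16, 6.91 and 6.88. That of Mrpl34, near background, was highest in muscle 3, at 5.98, 5.96 and 6.43.

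In the small subunit, the genes of the decoding centre and the path of the messenger RNA were detected throughout, 6 of 6, as were all 74 members. Mrps12, the relative of the bacterial protein that carries streptomycin resistance mutations, had a range of 0.0764. Mrps7 was at 9.73, 9.66 and 9.62 and Mrps24, at the channel where the message enters, at 10.29, 10.30 and 10.25. Mrps2 was at 8.56, 8.52 and 8.58. Mrps5, also at the entry channel, was at 7.31, 7.53 and 7.44, and was the member that came closest to background.

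Mitochondria-specific proteins of the small subunit were represented by 8 measured genes of 9 listed, and Mrps27 was not measured by a probe set with a single gene. Mrps25 varied most among all small subunit genes, at 8.02, 8.37 and 8.01, with muscle 2 apart by a factor of 1.28 and an adjusted p of 0.971 by limma's variance test (unadjusted p 0.0453). Mrps22, mutated in human mitochondrial disease, was at 9.10, 8.89 and 8.88. Mrps35 was at 8.58, 8.68 and 8.45, and Mrps26 at 9.31, 9.26 and 9.18. The remaining ones, Mrps23, Mrps31, Mrps33 and Mrps34, had ranges from 0.0250 to 0.0705. Muscle 3 was the lowest for 7 of these 8 genes, against 47.5% of the 7551 genes detected in at least 1 muscle. For the family as a whole the share fell close to that of all genes after quantile normalization, at 39.2% against 36.5%.

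Some members named for the small subunit sit elsewhere. Mrps18a, Mrps18b and Mrps18c descend from the same bacterial protein: Mrps18a is built into the large subunit and the others into different places of the small one. Mrps18a was at 9.79, 9.73 and 9.61, Mrps18b at 8.84, 8.71 and 8.79 and Mrps18c at 10.19, 10.21 and 10.11. The 3 relatives were all detected in every muscle, and their order over the muscles differed. Mrps30, a protein of the large subunit, was at 9.58, 9.55 and 9.61. Mrps36, now known as a subunit of the 2-oxoglutarate dehydrogenase of the citrate cycle and not of the ribosome, was at 10.30, 10.28 and 10.28. The 9 genes linked here to human mitochondrial disease, Mrpl3, Mrpl12, Mrpl44, Mrps2, Mrps7, Mrps14, Mrps16, Mrps22 and Mrps34, had a median SD of 0.0224 and a widest range of 0.213, that of Mrps22. This is a chosen list and not a full one, and its values were not matched on level. They do not describe disease genes in general.

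Over the 74 genes the median SD between muscles was 0.0529, against 0.0811 for the 7551 genes detected in at least 1 muscle. A range under 0.1 was found for 38 of them (51.4%), against 29.9% of all 7551. Spread falls with level, however, and 41 of the 74 had an SD below the median of all genes in their own level class. From 9 to 10 the median SD was 0.0399 for 29 members and 0.0570 for all genes, and from 10 to 12 it was 0.0307 for 20 members and 0.0408 for all genes. From 8 to 9 the order turned, with 0.103 for 19 members and 0.0734 for all genes, and from 7 to 8 it was 0.105 for 6 members and 0.0975 for all genes. The smaller spread of the family as a whole thus did not hold at its lower levels.

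**Figure D3:**
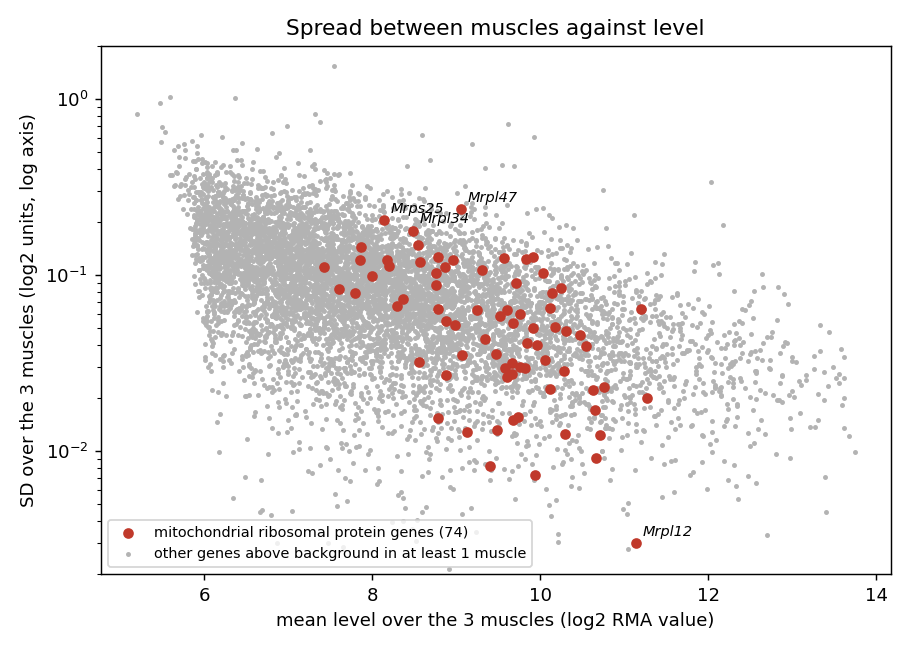
SD over the 3 muscles (log2 units, log axis) against mean level (log2 RMA value) for the 74 mitochondrial ribosomal protein genes (red) and the other genes above background in at least 1 muscle (grey). The red points lie inside the grey cloud, from Mrpl12 with an SD of 0.00301 to Mrpl47 with 0.236.

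No member was called more variable than genes of like level. By limma's variance test with Benjamini-Hochberg adjustment over 7551 genes, 0 of 74 members passed an adjusted p of 0.05, against 6 of 7551 genes (0.0795%), and the smallest adjusted p among members was 0.782, for Mrpl47. At an unadjusted p under 0.05 there were 3 members, Mrpl47, Mrps25 and Mrpl2, and 374 genes in all. A range of 1.5-fold or more was reached by 0 of the 74, against 2.54% of all genes, and a range of 2-fold by 0, against 0.305%. In simulated data for these muscles the test called 57% of genes moved by 1 in a single muscle and 99.5% of those moved by 2 on the log2 scale, so a smaller difference in 1 muscle would often not have been called.

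Muscle 3 was the lowest of the 3 for most of the family. It was lowest for 47 of 74 members, muscle 2 for 14 and muscle 1 for 13, and over all 7551 genes muscle 3 was lowest for 47.5%, muscle 2 for 29.9% and muscle 1 for 22.7%. The highest level was in muscle 1 for 28 members, in muscle 2 for 32 and in muscle 3 for 14, against 41.1%, 34.8% and 24.1% of all genes. The shift was close in size to that of all genes. The median departure of muscle 3, its level less the average of muscles 1 and 2, was -0.040 for the members and -0.036 for all genes. The departure of muscle 1 was 0.018 for the members and 0.028 for all genes, and that of muscle 2 was 0.023 and 0.010. After quantile normalization of the 3 columns, muscle 3 was lowest for 29 members (39.2%) and for 36.5% of all genes, with median departures of -0.0037 and -0.0042, so the lower level of the family in muscle 3 was not kept under that scaling.

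**Figure D4:**
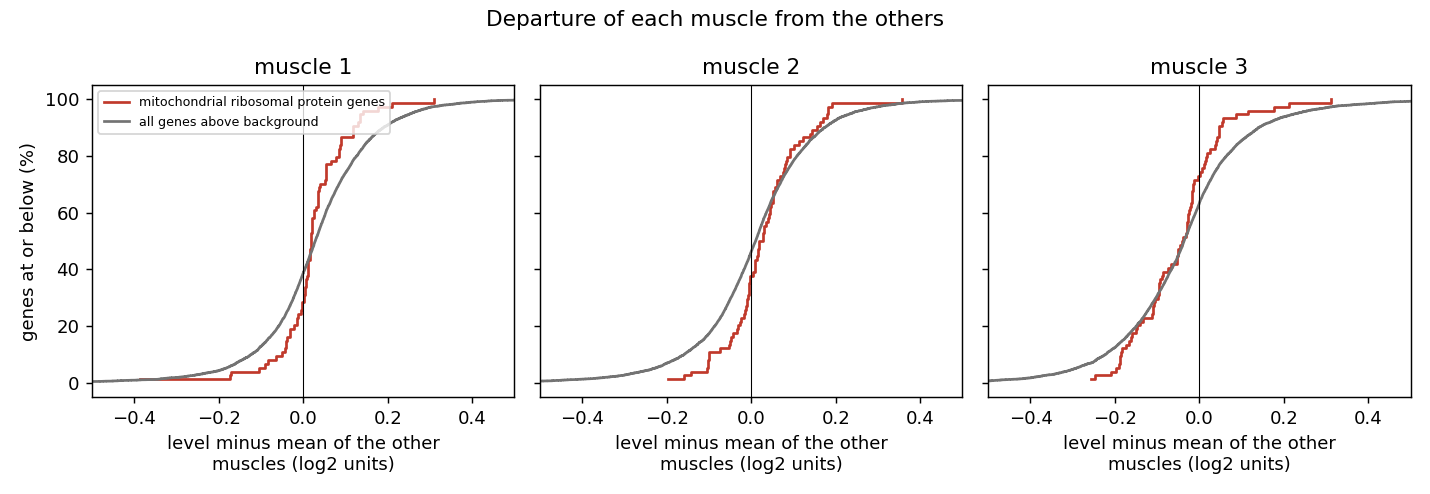
Cumulative share of genes (%, vertical axis) by departure (log2 units), the level in one muscle less the average of the others, for the 74 mitochondrial ribosomal protein genes (red) and all 7551 genes above background in at least 1 muscle (grey), in a panel for each muscle. Both medians of muscle 3 lie left of 0, at -0.040 for the members and -0.036 for all genes.

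Some other readings, though not all, set muscle 3 apart on the same arrays. The added bacterial control RNA dap had a 3′ minus 5′ difference of 4.13, 3.99 and 3.04 in muscles 1, 2 and 3, and 18S ribosomal RNA, read near its 5′ end, was at 10.96, 11.23 and 11.69. For RNAs of the muscle itself the 3′ minus 5′ difference was smaller. It was 0.33, 0.43 and 0.37 for Gapdh, with muscle 3 between the others, and 0.76, 0.77 and 0.61 for Actb. The endothelial markers had a median departure of -0.24 and the leukocyte markers of -0.19 in muscle 3, whereas the fibre markers had 0.0051. The fibroblast, slow fibre and Schwann cell markers had -0.011, -0.0061 and -0.012. Among the endothelial markers Pecam1 was lowest in muscle 1, at 6.41, 6.60 and 6.47. Of the adipocyte genes detected in all 3 muscles, the hormone gene Adipoq was at 10.59, 10.55 and 10.40, lowest in muscle 3, and the fatty acid carrier Fabp4 at 12.21, 12.24 and 12.22, lowest in muscle 1. The part of these readings in the lower values of the family in muscle 3 was not tested. Without muscle 3, the median SD of the members was 0.0282, against 0.0558 for all genes.

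Where a gene had several probe sets, these often disagreed in level. Of 33 such members 12 had all their probe sets detected in every muscle, 18 had at least 1 that was detected in no muscle and 3 lay between. Over the 127 probe sets 104 were detected in all muscles and 20 in none, against 48.3% of all 20393 single-gene probe sets detected in all muscles. The gap was widest for Mrpl42, with 1 probe set at 11.29, 11.26 and 11.26 and another at 2.84, 2.79 and 2.94. Mrpl15 had 7 probe sets, of which 4 had means from 9.23 to 10.54 and 3 had means from 3.17 to 5.22. At the other end, the probe sets of Mrps15, Mrpl48, Mrpl49 and Mrps24 lay within 0.197 of each other.

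**Figure D5:**
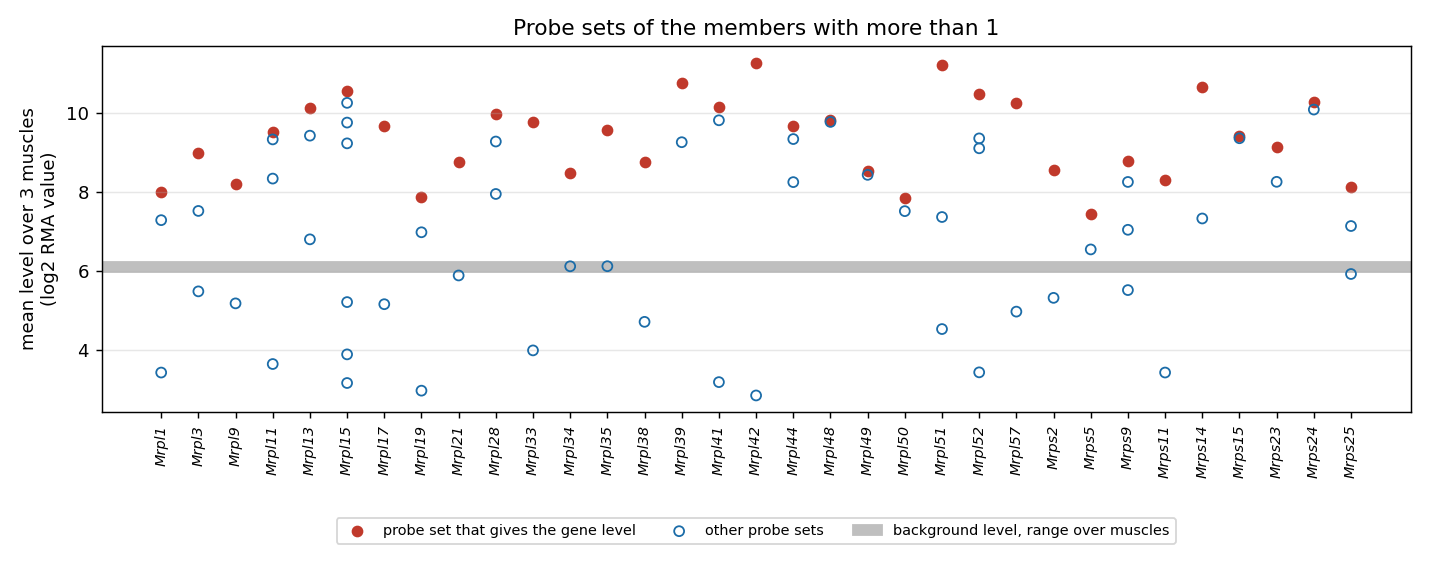
Mean level over the 3 muscles (log2 RMA value, vertical axis) of every probe set of the 33 members with more than 1; filled red points give the gene level, open blue points are the other probe sets and the grey band is the range of the background level. For 18 genes at least 1 open point was below background in every muscle, as for Mrpl42, Mrpl41 and Mrpl15.

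The probe sets of a gene also bore on the small differences between muscles. For Mrpl49 both probe sets were lowest in muscle 3, at 8.63, 8.62 and 8.37 for one and 8.46, 8.54 and 8.30 for the other. For Mrpl50 they opposed each other, at 7.78, 7.78 and 7.99 for one and 7.51, 7.64 and 7.40 for the other. For Mrps25, muscle 2 was highest on a second probe set as well, at 7.09, 7.22 and 7.11, but by less. The second probe set of Mrpl48 did not show the rise in muscle 2, at 9.80, 9.75 and 9.76. Among 22 members with 2 or more detected probe sets, muscle 3 lay on the same side of the other muscles on the 2 highest in 13, below in 12 and above in 1. This count was not made over all genes, of which 47.5% were lowest in muscle 3, so it does not set the family apart. Mrpl47, the most variable member, had a single probe set, so its order could not be set against another.

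Other genes of mitochondrial translation, from lists of named genes, were mostly detected as well. Subunits under other symbols were detected in 4 of 4 measured cases: Dap3, a GTP-binding protein of the small subunit, was at 10.17, 10.02 and 10.11, Ptcd3 at 9.80, 9.74 and 9.60, Chchd1 at 10.88, 10.92 and 10.84 and Gadd45gip1, of the large subunit, at 8.20, 8.17 and 8.19. Genes of ribosome assembly and ribosomal RNA modification were detected in 20 of 20 measured cases. Among them were the GTPase Eral1 at 9.05, 9.03 and 8.97, the methyltransferase Nsun4 at 8.19, 8.23 and 8.16 and the RNA helicase Dhx30 at 8.48, 8.35 and 8.41. Both lists are read against 55.5% of all genes. Muscle 3 was the lowest for 12 of the 20 assembly genes, against 47.5% of all genes, with a median departure of -0.079, against -0.036 for all genes.

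Of 12 listed symbols of factors that work on the finished ribosome, 6 were measured outside the family. Of these, 5 were detected in all 3 muscles, against 55.5% of all genes. The elongation factors Tufm and Gfm1 were at 8.98, 8.84 and 8.81 and at 9.92, 9.87 and 9.83, and the initiation factor Mtif2 at 8.50, 8.48 and 8.45. Each of these was highest in muscle 1 and lowest in muscle 3. The recycling factor Gfm2 was lowest in muscle 1 and highest in muscle 2, at 7.47, 7.83 and 7.74. Mrrf, also a recycling factor, was lowest in muscle 2 and highest in muscle 3, at 8.33, 8.28 and 8.39. Mtfmt, which adds the formyl group to the initiator transfer RNA, was the one not detected in all 3, at 6.25, 6.12 and 6.02. Of 22 listed synthetases and amidotransferase subunits that charge mitochondrial transfer RNAs 13 were measured, including Gars and Kars, which also serve the cytosol. Of these 13, 11 were detected in all 3 muscles, against 55.5% of all genes, with Ears2 and Pars2 below background in 1 or more muscles.

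Genes of mitochondrial transcription and known regulators of mitochondrial genes were mostly detected. The RNA polymerase of mitochondria (Polrmt) was at 8.99, 8.89 and 8.70 and the packaging factor Tfam at 8.98, 8.99 and 8.86. Of 9 upstream regulators 7 were detected in all muscles, against 55.5% of all genes. Gabpa, the ETS subunit of GABP, was at 8.80, 8.82 and 8.88 and Yy1 at 9.29, 9.38 and 9.13. In contrast, Nrf1 was at 6.04, 5.77 and 5.96 and Gabpb1, another subunit of GABP, at 6.40, 6.07 and 5.99, each above background in muscle 1 only. Esrra, an orphan receptor of the mitochondrial programme, had the widest range of the list, at 8.55, 8.97 and 8.36, a difference of 0.611 between muscles 2 and 3. A regulator below background can still be present, since its probe sets may bind weakly.

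Set beside the complexes most like it, the family was detected as a whole. Nuclear genes of oxidative phosphorylation, whose enzymes work with the products of this ribosome, were detected in 85 of 88 cases. They were taken by symbols that start with Nduf (without Ndufaf), Sdh, Uqcr, Atp5 or Cox and a digit. That rule can also take in assembly factors. Cytosolic ribosomal proteins were detected in 40 of 47 cases, and both counts are read against 55.5% of all genes. Of the 3 respiratory genes not detected in all muscles Cox4i2 and Cox6b2 are isoforms of lung and testis, and Cox7c is a general subunit of complex IV. The cytosolic genes that fell short were Rpl12, Rpl14, Rpl39, Rpl39l, Rps15a-ps6, Rps27 and Rps4l, with 5 of them below background in every muscle. Weak binding of their probe sets was not tested, so the counts do not show which complex is more fully expressed. The median SD was 0.0529 for the mitochondrial ribosomal genes, 0.0330 for oxidative phosphorylation and 0.0329 for cytosolic ribosomal genes, with no matching of the lists on level. Muscle 3 was the lowest for 63.5% of the mitochondrial ribosomal genes, 48.8% of the oxidative phosphorylation genes and 69.0% of the cytosolic ribosomal genes, against 47.5% of all genes. These shares follow from 3 arrays that every gene shares, and no difference between the lists was tested.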

How the data were processed

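RNA levels in 3 normal mouse muscles were measured on 3′ expression arrays with biotin label, from 500 ng of total RNA extracted with Trizol, per the labels' protocols. The deposited values of the authors are log2 levels per probe set, made with RMA, per the submitters' processing notes. Which version ran, and on which arrays, is not given in the sources used here. Gene names came from the platform annotation, and 20393 probe sets had 1 gene, 691 several and 1606 none. All 74 symbols matched RefSeq (GRCm38.p6) by Entrez number. RMA evens out brightness between arrays and hides shifts of most genes at once. Precision is limited by the number of arrays.

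Genes detected in at least 1 muscle were tested with limma 3.58.1 in R 4.3.3: each variance (2 degrees of freedom) was set against the prior variance (robust, trend on level), one-sided, with Benjamini-Hochberg adjustment at 0.05. The method was tested on simulated data. Python 3.11.15, numpy 2.4.6, pandas 2.3.3 and matplotlib 3.10.9 served for the rest.

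The members, gene lists and motifs were chosen with earlier results of these data known. Named members were those of listed role groups, those with the 12 widest and 6 narrowest ranges and those whose probe sets lay on both sides of background or differed most. Further members, the promoter windows, the neighbours and the genes named from other lists were chosen after their values were seen. Alternatives were other scalings, probe set rules, background levels, limma settings and each muscle left out.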

Additional observations from a re-analysis of the deposited data

How the results depend on the processing

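No paired analysis was possible because there is a single group. The count of 74 detected members became 72 with probe sets averaged, where Mrpl19 and Mrps11 were lost, and 54 of 59 without probe sets whose names end in _x_at, _s_at or _a_at, where Mrpl15, Mrpl17, Mrpl21, Mrpl35 and Mrpl38 were lost. It was 74 under every other setting run, each muscle left out included. No member was called by limma's variance test under any setting run, with a smallest adjusted p among members from 0.445 to 0.982. Over all genes, 6 were called, 11 after quantile normalization, and 0 with probe sets averaged, without muscle 3 or without a trend on level. The median SD of members ran from 0.0282 to 0.0521 with 1 muscle left out, and 0.0282 was the value without muscle 3. Counts in the other lists fell with the probe set rule: 3 mitochondrial translation factors with probe sets averaged, and, without the 3 suffixes, 6 synthetase, 8 assembly and 10 cytosolic ribosomal genes, in part because fewer genes remained. The level of 31 of 74 members moved by more than its SD when probe sets were averaged. A second list of background genes was not run. With 3 arrays and no detection calls, small differences between muscles could not be resolved.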
